A study of Rattus norvegicus with 12 samples.

Results

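A small set of transcripts was less abundant in the lumbar spinal cord of every rat with a ligated sciatic nerve than in every rat with sham surgery, whether or not the ligated rats were treated. The set holds 17 of the 41078 transcripts listed. They were chosen by their measured abundance in the 12 libraries. Abundance is given as CPM, the count divided by the library total and multiplied by 1000000. A transcript was kept when its mean over the 12 libraries was at least 1 CPM, its highest value in the 8 ligated libraries lay below its lowest value in the 4 Sham libraries, and its Sham mean was at least 1.2 times the mean of the 8 ligated libraries. The difference between Sham and ligated rats is therefore what defines the set. It is described below, and the fits against Sham are given as a description and not as a test of the set.

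RNA was sequenced from segments L4 to L6 of the spinal cord of 12 wild-type rats, collected on postoperative day 10, with 4 libraries in each of 3 groups and, per the design text, 4 rats in each group. In the Sham group the sciatic nerve was exposed without ligation. The CCI group had the nerve ligated. The CCI+THP group had the nerve ligated and received THP, named in the series title as levo-tetrahydropalmatine. Strain, sex, age, dose and dosing times were not given in the sources used here.

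Ligation of the sciatic nerve is a widely used model of neuropathic pain. The lumbar segments sampled here receive the sensory fibres of that nerve, and their dorsal horn holds the first central relay of pain signals. Levo-tetrahydropalmatine is an alkaloid from Corydalis plants with analgesic and sedative actions, known to bind dopamine receptors. The counts are listed for single Ensembl transcripts, and one gene can give several. A lower transcript can mean that the gene is expressed less or that another isoform takes its place, and these counts were not summed over genes. In whole tissue, fewer cells of a type and less RNA per cell cannot be told apart either.

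None of the listed identifiers (0 of 41078) could be paired with a gene symbol, because the files hold no symbols and the RefSeq table at hand, of assembly GRCr8, has no Ensembl entries. The members are therefore named by identifier, with no gene function, location or sequence, and the prepared gene lists and markers, those for the spinal cord itself included, were not analysed here. A library held between 82.9 and 110.8 M (mega) estimated counts. The members together held between 0.0136% and 0.0261% of a library, and the lowest count of any member in any library was 9.

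Complete separation in the downward direction was uncommon. Some transcripts would separate in this way by the order of unrelated libraries alone. How many was not computed, so the numbers below are not read as an excess. Of the 17937 transcripts with a mean of at least 1 CPM, 40 (0.223%) had all ligated libraries below all Sham libraries, and 17 (0.0948%) also met the ratio of 1.2. The mirror image of the rule, all ligated libraries above all Sham libraries with a ratio of at least 1.2, was met by 378 (2.11%). The 17 averaged 4.40 CPM at their median (quartiles 2.70 and 7.05), against 8.19 CPM in the mirror set and 15.9 CPM over all 17937 transcripts. Most members were thus scarce: 10 had a mean under 5 CPM and 13 a mean under 10 CPM. The number depended on the scaling: with TMM factors applied to the library totals, 31 transcripts met the rule, all 17 among them, and 329 its mirror image. Without the limit on the ratio, 97 were separated downward with TMM factors, against 40 with library totals. With 1 library fewer to satisfy, the rule kept 21 to 53 transcripts, the most without Sham replicate 3.

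The size of the difference was uneven within the set. The ratio of the Sham mean to the ligated mean ran from 1.22 to 15.6 with a median of 1.36 (quartiles 1.29 and 1.56). It was at least 2 in 3 members and at least 1.5 in 6. Group means in CCI lay at a median of 75.7% of the Sham mean (range 6.10% to 87.0%) and those in CCI+THP at 76.5% (range 6.70% to 82.1%). One transcript thus stood far from the other 16.

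**Figure D1:**
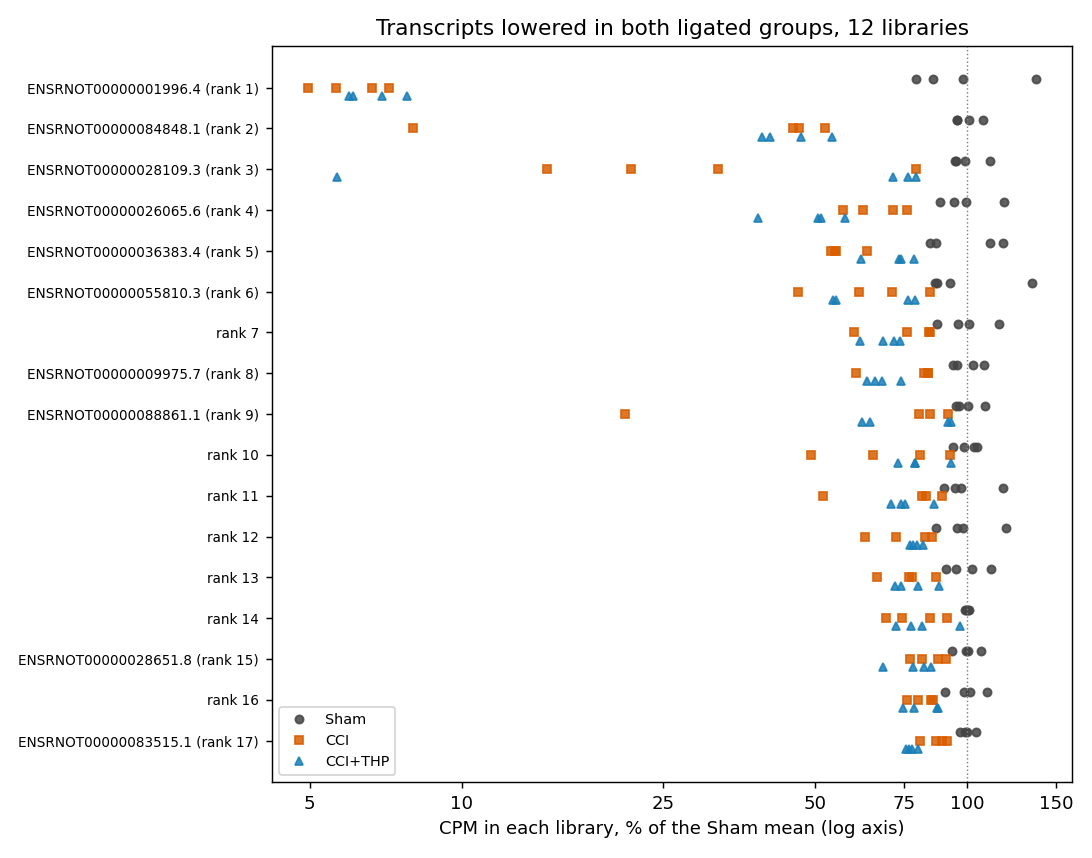
Abundance of the 17 lowered transcripts in each of the 12 libraries, as a percentage of that transcript's Sham mean on a log axis; rows are ordered by the ratio of the Sham mean to the ligated mean, and each point is 1 library. In the top row the ligated libraries sit far to the left of all others, while in most rows the ligated points lie close below the Sham points.

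ENSRNOT00000001996.4 had the largest ratio and was the second most abundant member. It measured 40.3, 37.3, 46.2 and 64.5 CPM in the 4 Sham libraries. In CCI it measured 2.65, 3.12, 2.34 and 3.38 CPM, and in CCI+THP 2.87, 3.27, 2.81 and 3.66 CPM. All 8 ligated libraries thus lay in a narrow band, with the highest of them 33.7 CPM below the lowest Sham library. The means were 47.1 ± 12.2 CPM in Sham, 2.87 ± 0.468 CPM in CCI and 3.15 ± 0.394 CPM in CCI+THP (SD, n = 4), a ratio of 15.6. Leaving out any 1 library kept that ratio between 13.7 and 16.7.

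ENSRNOT00000084848.1 had the next largest ratio, 2.40. It measured 18.4, 19.4, 18.4 and 20.7 CPM in Sham, 8.93, 1.54, 8.69 and 10.1 CPM in CCI, and 10.4, 7.54, 7.83 and 9.04 CPM in CCI+THP. CCI replicate 2 was far below the other CCI libraries, which lay within the range of the CCI+THP libraries. Without that library the ratio was 2.15. ENSRNOT00000028109.3, with a ratio of 2.10, was the scarcest member at a mean of 1.05 CPM. It measured 1.54, 1.53, 1.60 and 1.79 CPM in Sham, 0.518, 0.350, 0.238 and 1.28 CPM in CCI, and 0.0916, 1.15, 1.24 and 1.28 CPM in CCI+THP. Sham libraries were close together, whereas 4 of the 8 ligated libraries lay between 1.15 and 1.28 CPM and the other 4 at or below 0.518 CPM. The lowest, CCI+THP replicate 1, held 9 counts, and without it the ratio was 1.87.

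**Figure D2:**
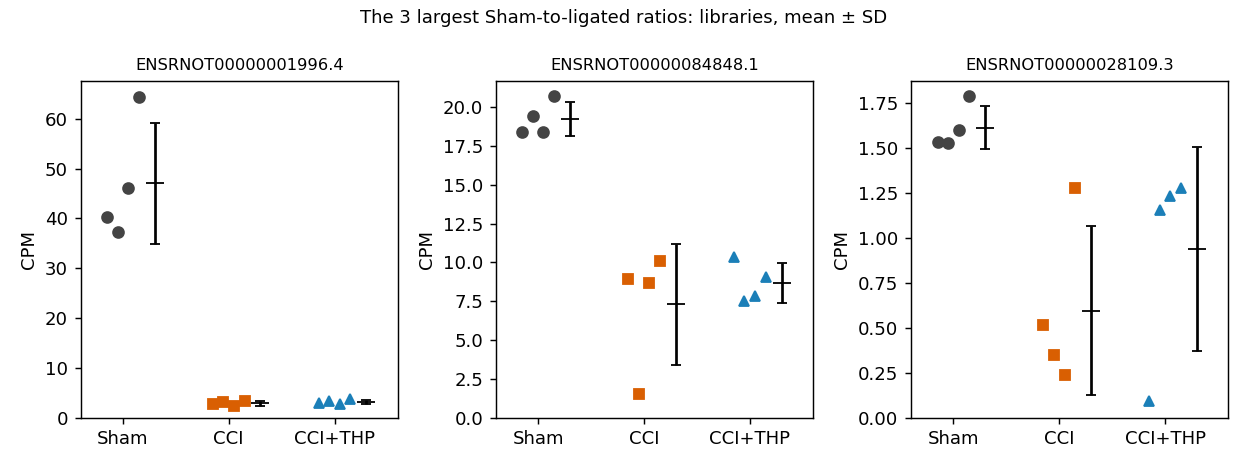
CPM of the 3 transcripts with the largest ratios in Sham, CCI and CCI+THP; each point is 1 library, and the bar beside each group is its mean ± SD (n = 4). The 8 ligated values of the first transcript lie together near 3 CPM, while the second has 1 CCI library and the third 4 ligated libraries well below the remaining ligated ones.

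ENSRNOT00000028651.8 was by far the most abundant member, at 91.3 CPM on average, and had one of the smallest ratios, 1.23. It measured 97.6, 111.3, 104.8 and 103.7 CPM in Sham, 80.3, 94.8, 91.2 and 85.1 CPM in CCI, and 85.6, 88.5, 81.4 and 71.2 CPM in CCI+THP. Its highest ligated library, CCI replicate 2, came within 2.73% of the Sham mean of reaching the lowest Sham library. ENSRNOT00000026065.6 measured 5.38, 7.21, 5.75 and 6.07 CPM in Sham, 3.80, 3.46, 4.64 and 4.35 CPM in CCI, and 3.14, 3.50, 3.09 and 2.36 CPM in CCI+THP. The CCI+THP values lay mostly below the CCI values here, with CCI+THP replicate 2 just above the lowest CCI library. ENSRNOT00000036383.4 had the opposite order, with 2.80, 3.79, 2.71 and 3.58 CPM in Sham, 1.73, 2.04, 1.76 and 1.77 CPM in CCI, and 2.53, 2.38, 1.98 and 2.36 CPM in CCI+THP. Here CCI replicate 2 was the 1 CCI library that reached into the CCI+THP range.

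Among the less changed members, ENSRNOT00000009975.7 measured 5.84, 5.56, 5.16 and 5.06 CPM in Sham, 4.44, 3.26, 4.53 and 4.53 CPM in CCI, and 3.67, 4.01, 3.43 and 3.56 CPM in CCI+THP. CCI replicate 2 was below all CCI+THP libraries and the other CCI libraries above them. ENSRNOT00000083515.1 measured 7.75, 8.31, 7.91 and 7.996 CPM in Sham, 6.95, 7.30, 7.14 and 6.44 CPM in CCI, and 6.23, 6.05, 6.14 and 6.38 CPM in CCI+THP. It was the 1 member whose 3 groups did not overlap at all, with CCI between Sham and CCI+THP. ENSRNOT00000088861.1 measured 8.14, 7.71, 7.82 and 8.80 CPM in Sham, 6.51, 7.45, 1.70 and 6.87 CPM in CCI, and 5.21, 7.45, 7.56 and 5.02 CPM in CCI+THP. CCI replicate 3 was low, and the ratio went from 1.36 to 1.23 without it. ENSRNOT00000055810.3 measured 1.66, 1.55, 2.41 and 1.57 CPM in Sham, 1.52, 0.832, 1.28 and 1.10 CPM in CCI, and 0.977, 1.42, 0.992 and 1.38 CPM in CCI+THP. Its Sham mean leaned on replicate 3, without which the ratio of 1.52 became 1.34.

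The remaining 7 members had Sham means between 3.01 and 11.8 CPM and ratios between 1.22 and 1.38. Their CCI means lay between 71.9% and 81.7% of the Sham mean and their CCI+THP means between 68.7% and 82.1%. These were shallow differences with narrow gaps between the groups. The gap between the lowest Sham and the highest ligated library was between 0.884% and 3.19% of the Sham mean in these 7.

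Several members sat close to the limits of the rule. Over the 17, the gap had a median of 2.81% of the Sham mean. It was under 5% in 10 members and at least 10% in 4. The smallest ratios inside were 1.215 for ENSRNOT00000083515.1 and 1.22 for ENSRNOT00000033998.4, and the nearest outside, with all libraries separated, were 1.192 for both ENSRNOT00000029768.2 and ENSRNOT00000012035.4. The narrowest gap inside was that of ENSRNOT00000006345.6, with 2.94 CPM in its lowest Sham and 2.91 CPM in its highest ligated library. ENSRNOT00000044028.3, with 3.715 and 3.718 CPM in those libraries, lay just outside despite a ratio of 1.48. So did ENSRNOT00000007398.4, with a Sham mean of 33.7 CPM and a ligated mean of 0.00437 CPM. Its lowest Sham library had 0 CPM and its highest ligated library 0.0350 CPM. Below the abundance limit 11 further transcripts met the rest of the rule. The most abundant of them averaged 0.699 CPM, while the 2 scarcest members averaged 1.05 and 1.39 CPM.

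No single ligated library set the edge of the separation. The highest ligated value came from CCI in 9 members and from CCI+THP in 8, and each of the 8 ligated libraries was the highest for 1 to 3 members. The lowest ligated value came from CCI in 12 members, 4 of them CCI replicate 2 and 4 CCI replicate 3. Of the 909 transcripts that met the abundance and ratio limits, 52 missed separation because of 1 ligated library alone. That library was a CCI library for 24 and a CCI+THP library for 28.

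**Figure D3:**
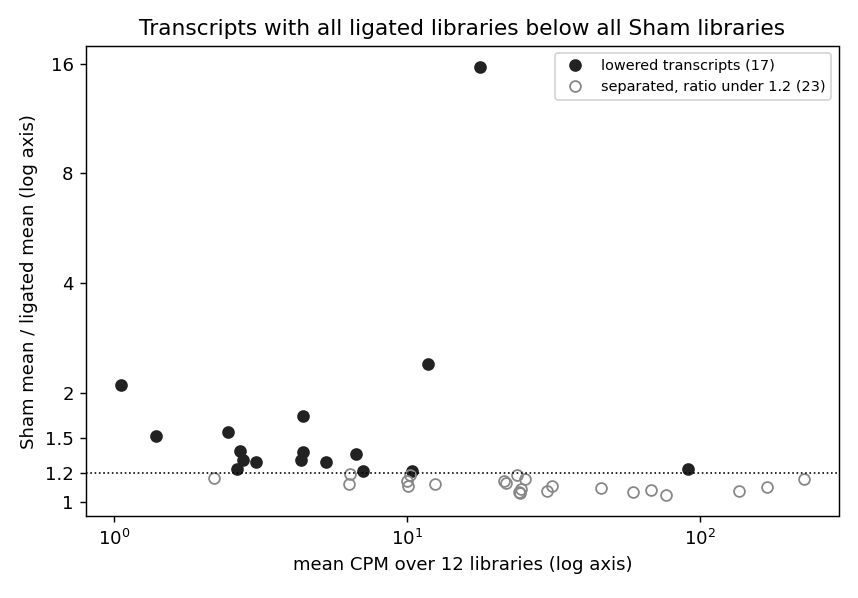
Ratio of the Sham mean to the ligated mean against mean CPM, both on log axes, for the 40 transcripts whose 8 ligated libraries all lay below the 4 Sham libraries; filled points are the 17 members, open points the 23 with a ratio under 1.2 (dotted line). Apart from 1 member at 91.3 CPM, the transcripts above about 20 CPM on the x axis have ratios under 1.2.

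Spread between rats relative to the mean was larger, at the median of these transcripts, in the ligated groups than in Sham. The rule itself bears on this, since all Sham values had to clear all ligated ones. The coefficient of variation had a median of 7.72% for Sham, 14.9% for CCI and 10.1% for CCI+THP over the members. Over all transcripts with a mean of at least 1 CPM these medians were 8.70%, 9.75% and 8.73%.

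The rule did not compare treated with untreated ligated rats, and the members were tested on that contrast. It did require all CCI+THP libraries to lie below all Sham libraries. A transcript returned to the Sham range in CCI+THP could therefore not be a member, and the absence of such members is no result. None of the 17 passed in CCI+THP against CCI (edgeR quasi-likelihood F test, Benjamini-Hochberg adjusted over 24037 transcripts; adjusted p from 0.650 to 0.997 for the members). The same fit called 3 of the 24037 transcripts (0.0125%). At an unadjusted p under 0.05 there were 3 members, 1 higher and 2 lower in CCI+THP, against 6.96% of all transcripts tested. DESeq2 called 0 of the 17 and 162 (0.674%) of all transcripts, and limma voom 0 and 1 (0.00416%). The median log2 fold change of the members was 0.034 (quartiles -0.10 and 0.16), beside 0.00494 for all transcripts. Positive fold changes were found in 12 members and negative ones in 5, where 51.4% of all transcripts were positive. This split rested on single libraries: it was 8 and 9 without CCI+THP replicate 2, and 9 and 8 without CCI replicate 1 or without CCI replicate 3.

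Members near the ends of this comparison differed in both directions by amounts that did not pass. ENSRNOT00000028109.3 had the highest log2 fold change, 0.64 ± 0.68 (SE; edgeR adjusted p = 0.911), with a 95% interval from -0.85 to 2.13. The fitted difference between CCI and Sham for this transcript, -1.45 on the log2 scale, is smaller in size than the upper bound. It was 1.02 ± 0.47 without CCI+THP replicate 1, and ranged from 0.38 without CCI replicate 3 to 1.35 without CCI replicate 4. With limma voom it was 0.30. ENSRNOT00000036383.4 followed at 0.35 ± 0.15 (edgeR adjusted p = 0.691, interval 0.020 to 0.67), its CCI+THP mean at 71.8% and its CCI mean at 56.7% of Sham. The lowest was ENSRNOT00000026065.6 at -0.42 ± 0.15 (edgeR adjusted p = 0.650, interval -0.76 to -0.085), at 49.5% of Sham in CCI+THP and 66.6% in CCI. ENSRNOT00000009975.7 came next at -0.19 ± 0.13 (edgeR adjusted p = 0.808, interval -0.47 to 0.087). Without CCI replicate 2 its value was -0.30 ± 0.10 (edgeR adjusted p = 0.553).

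ENSRNOT00000001996.4, with the deepest difference from Sham, had a log2 fold change of 0.14 ± 0.18 between CCI+THP and CCI (edgeR adjusted p = 0.931, interval -0.25 to 0.53). It ran from 0.048 to 0.23 with 1 library left out, and its 4 CCI+THP values overlapped its 4 CCI values. ENSRNOT00000084848.1 was less certain, at 0.25 ± 0.42 (edgeR adjusted p = 0.952, interval -0.67 to 1.17), and changed sign to -0.088 ± 0.12 without CCI replicate 2. ENSRNOT00000028651.8, the most abundant, had -0.10 ± 0.074 (edgeR adjusted p = 0.841, interval -0.26 to 0.063). Over the 17 members the half-width of the interval had a median of 0.33 on the log2 scale and ran from 0.15 to 1.49. The interval lay within 0.5 log2 units of no difference in 9 members and within 1 in 15. Both limits are wide here, since the members' log2 fold change in CCI against Sham had a median of -0.43.

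The CCI and CCI+THP values overlapped in 16 of the 17 members. In the other, ENSRNOT00000083515.1, all CCI+THP libraries were below all CCI libraries, with a log2 fold change of -0.16 ± 0.066 (edgeR adjusted p = 0.683). Of all transcripts with a mean of at least 1 CPM, 806 (4.49%) had groups that did not overlap in this comparison, so 1 of 17 is near the background.

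**Figure D4:**
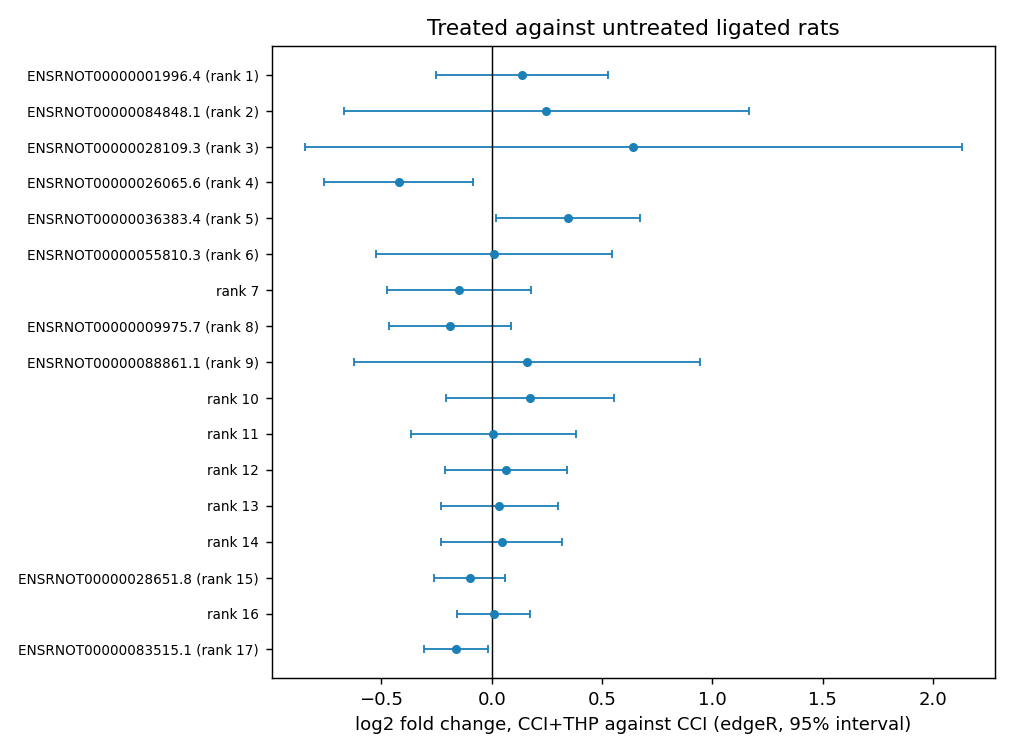
Log2 fold change of CCI+THP against CCI for the 17 lowered transcripts, in the order of their Sham-to-ligated ratio; points are edgeR estimates and bars their 95% intervals. In 14 rows the interval spans 0, and the widest belongs to the third row, ENSRNOT00000028109.3.

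Being lower in all 8 ligated libraries did not bring most members past the threshold of the transcript-wide fits against Sham. These fits use the values that chose the set, and both use the same Sham libraries. The counts, and the calls kept or lost with 1 library left out, are therefore a description and no support for the set. In CCI against Sham 2 of the 17 were called lower, where the fit called 0.0166% of all transcripts lower. They were ENSRNOT00000001996.4, at a log2 fold change of -4.06 ± 0.20, and ENSRNOT00000036383.4, at -0.84 ± 0.15. In CCI+THP against Sham 4 were called lower, where 0.0874% of all transcripts were. These were ENSRNOT00000001996.4 at -3.92 ± 0.20, ENSRNOT00000026065.6 at -1.03 ± 0.15, ENSRNOT00000083515.1 at -0.39 ± 0.066 and ENSRNOT00000028651.8 at -0.37 ± 0.074. ENSRNOT00000001996.4 was the 1 member called in both fits. Its calls, and that of ENSRNOT00000026065.6, were made whichever of the 12 libraries was left out. The call of ENSRNOT00000036383.4 was lost in 8 of these 12 fits, that of ENSRNOT00000028651.8 in 10 and that of ENSRNOT00000083515.1 in 6, so the number of members called was 1 or 2 in CCI and 2 to 5 in CCI+THP. DESeq2 called 7 members lower in CCI and 8 in CCI+THP, where it called 0.557% and 0.986% of all transcripts lower.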

How the data were processed

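RNA was extracted with TRIzol and libraries were made with a NEBNext Ultra kit, per the labels' protocols. The deposited files hold estimated counts, whole numbers per Ensembl transcript without scaling for depth or length, and no rounding was needed. The build rn4 is named in the submitters' processing notes, and the aligner, the counter and the annotation used were not given in the sources used here. Multiples of 4 were 1.24 times as frequent as their neighbours among deposited counts of 8 to 40. No interval was therefore computed from counting error alone. The SDs of CPM are spreads between rats. The SEs and intervals of log2 fold changes come from the edgeR fit, a count model whose estimate of spread draws on all transcripts tested.

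CPM values use library totals. Tests used edgeR 4.0.16 (R 4.3.3): filterByExpr (minimum count 10, minimum total 15; 24037 transcripts kept), TMM factors (0.975 to 1.02), 1 quasi-likelihood fit over 12 libraries with group as the only factor, Benjamini-Hochberg adjustment, two-sided, threshold 0.05. SE is the absolute log2 fold change over the square root of F. The fit was checked on simulated data. That check did not measure its power for changes as small as those of most members. Alternatives were DESeq2 1.42.0, limma 3.58.1 (voom with quality weights), other scaling and filters, 2 groups only, a replicate block, each library left out, and other limits of the rule.

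The members, lists and tests were chosen with earlier results of these data known. Named by rule were the 2 members with the largest ratio, the 2 most abundant, and the 2 highest and 2 lowest in CCI+THP against CCI. The other identifiers were singled out after their values were seen.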

Additional observations from a re-analysis of the deposited data

Results flagged for a closer look

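Each group of 4 values was examined for a library far from the other 3 by Dixon's ratio (critical value 0.829). Of 51 groups, 3 for each of the 17 members, 6 (11.8%) had such a library. Over all transcripts with a mean of at least 1 CPM the share was 7.20% (3873 of 53756 groups), and about 1 in 20 is the nominal chance rate. The members were chosen on these same values, so nothing is read from the difference. CCI replicate 2 was the library in 3 of them. ENSRNOT00000084848.1 was low at 1.54 CPM, against 8.69 to 10.1 CPM in the rest of that group. ENSRNOT00000009975.7 was low at 3.26 CPM, against 4.44 to 4.53 CPM, and ENSRNOT00000036383.4 was high at 2.04 CPM, against 1.73 to 1.77 CPM. ENSRNOT00000088861.1 had 1.70 CPM in CCI replicate 3, while the rest of its CCI group had 6.51 to 7.45 CPM. ENSRNOT00000028109.3 had 0.0916 CPM in CCI+THP replicate 1, while the remaining treated libraries had 1.15 to 1.28 CPM. ENSRNOT00000055810.3 was high in Sham replicate 3 at 2.41 CPM, against 1.55 to 1.66 CPM in the other Sham libraries.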

How the results depend on the processing

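The number of lowered transcripts depended on the limits and on the scaling. It was 31 with TMM-scaled CPM, all 17 among them. Of the 14 added, 3 were separated and 10 met the ratio limit with library totals. The factors were 0.975 to 1.01 in Sham, 0.988 to 1.02 in CCI and 0.992 to 1.02 in CCI+THP. The raised mirror set was then 329. The number was 6 with a ratio of at least 1.5, 40 with no limit on the ratio, 7 with a mean of at least 5 CPM and 25 with at least 0.1 CPM. Leaving out 1 library gave 21 to 53: 32, 42, 53 and 46 without Sham replicate 1, 2, 3 and 4, 26, 27 and 30 without CCI replicate 2, 3 and 4, 27 and 33 without CCI+THP replicate 2 and 3, and 21 to 24 otherwise. All 17 were among them except without Sham replicate 2 (16) or Sham replicate 4 (15). In CCI+THP against CCI, members past the threshold numbered 0 under all 19 alternatives, and their median log2 fold change stayed between -0.025 and 0.077. Transcripts called in that comparison, 3 by edgeR, were 162 with DESeq2, 1 with a filter at a mean of 1 CPM, 1 with limma voom, and 0 to 7 with 1 library left out (0 when the library removed was replicate 1 or 3 of Sham, 1 of CCI or 3 of CCI+THP, and 7 when it was 1 of CCI+THP). Against Sham, DESeq2 called 651 in CCI (144 by edgeR) and 858 in CCI+THP (244). The CCI count was 76 with only those 2 groups in the fit. With 1 library left out these counts were 72 to 149 and 115 to 241, each lowest without Sham replicate 4. Of the 7 members named by rule, ENSRNOT00000084848.1 changed sign, to -0.088 (edgeR adjusted p = 0.914) without CCI replicate 2, in a range of -0.088 to 0.45 with 1 library left out (adjusted p 0.889 to 0.991). The causes of these shifts were not tested.

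No clear pairing of libraries by the replicate numbers in the titles was seen. Same-numbered libraries of different groups had correlations of deviations from the group mean, across transcripts, of -0.0487 to 0.0775. Of 12 such matches, 4 were best with their own number. A weak batch shared by number could go unseen in these values. With the replicate number as a block, 0 transcripts passed in CCI+THP against CCI, 109 in CCI against Sham and 181 in CCI+THP against Sham.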
